A study of Mus musculus with 26 samples.

Results

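Mss51 and 8 genes of the myostatin pathway were followed in the tibialis anterior and extensor digitorum longus (TA/EDL), fast muscles of the mouse lower leg, of 26 mice. The genes were Mss51, Mstn, Acvr2a, Acvr2b, Fst, Fstl3, Smad2, Smad3 and Smad7, and their values were those of the array probe sets whose annotated symbol is exactly 1 of these names. Of the 9 genes, 8 had such a probe set. They had 16 among the 34945 probe sets that name a single gene, and 8 of the 14854 genes tested. Mstn, the gene of myostatin itself, had none that names it alone and was not analysed here. Mss51 was picked because its change with diet is large in these data, so its diet values are given as a description with no test.

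The 4 groups were 7 calorie-restricted (CR) MKO mice, 6 CR FLOX mice, 7 control-diet MKO mice and 6 control-diet FLOX mice. FLOX mice carry floxed alleles and serve as controls of the MKO mice, in which the coactivator PGC-1a is labelled as knocked out in skeletal muscle only. All were singly housed littermates on a mixed C57/BL6 and 129 background. Neither the promoter that drives Cre nor the age of the mice is stated in the labels used here. Free intake was recorded over at least 10 days. Control mice then ate 90% of it, and CR mice ate 80% for a week and afterwards 60%, as a 40% restriction diet, for about 11 of the 12 weeks. Each mouse gave 1 array.

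Myostatin is a secreted member of the TGF-beta family that restrains muscle growth. It binds the activin type II receptors, which recruit a type I receptor that phosphorylates SMAD2 and SMAD3, and these enter the nucleus with SMAD4. Follistatin (Fst) and follistatin-like 3 (Fstl3) bind the ligand outside the cell and block it, while SMAD7 inhibits signalling inside the cell. Mss51, also called Zmynd17, encodes a protein of muscle that associates with mitochondria, and its transcript is known to fall in mouse muscle when myostatin is inhibited.

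Values are the deposited array intensities, on a linear scale, and a level of 1 probe set cannot be set against that of another. Each comparison is a log2 change with its standard error (SE) from limma, fitted to log2(intensity + 16) over all genes. The threshold for a call was a Benjamini-Hochberg adjusted p under 0.05, adjusted over all 14854. Arrays of a group correlated at 0.984 to 0.996, and no 2 arrays were identical. All 8 fast-fibre markers were measured and none was called in any of the 4 comparisons of groups. The genotype effect averaged over diets called 1 of them higher in MKO (14.9% of all genes). The 5 probe sets of Ppargc1a, the targeted gene, were brighter in the mice labelled MKO, at 1.33 to 1.58 times the FLOX mean on CR and 1.55 to 1.84 times on the control diet. The labels do not say whether they lie in the deleted part, so genotype is given below as labelled. The array of CR MKO replicate 6 stood apart in slow-fibre transcripts, and results that depend on it are given without it. P-values measure the spread between these mice. In whole muscle, fewer cells of a type and less RNA per cell cannot be told apart.

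The promoter of Mss51 is shown because this gene had the largest change, and those of Acvr2a and Smad3 because they are the members called in a comparison that had a promoter window. Windows run from 250 bases before to 50 bases after the annotated start and come from RefSeq on build GRCm38.p6, which held a window for 6 of the 9 members. Mss51 lies on the minus strand at chr14:20482857-20496901 and its window at chr14:20496852-20497151. Acvr2a lies on the plus strand at chr2:48814109-48903264 and its window at chr2:48813859-48814158. Smad3 lies on the minus strand at chr9:63646766-63757994 and its window at chr9:63757945-63758244. In the Mss51 window the capitals mark GTCTAGAC, the palindrome known to bind SMAD3 and SMAD4 in vitro. In the other windows they mark GTCT, its shorter 4-base half-site, on either strand (AGAC is the same site on the opposite strand).
Mss51: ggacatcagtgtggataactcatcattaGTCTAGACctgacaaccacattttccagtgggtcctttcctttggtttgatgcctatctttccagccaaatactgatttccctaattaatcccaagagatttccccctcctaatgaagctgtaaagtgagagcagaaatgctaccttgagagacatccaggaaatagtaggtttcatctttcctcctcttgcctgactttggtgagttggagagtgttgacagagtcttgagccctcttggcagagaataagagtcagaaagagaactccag
Acvr2a: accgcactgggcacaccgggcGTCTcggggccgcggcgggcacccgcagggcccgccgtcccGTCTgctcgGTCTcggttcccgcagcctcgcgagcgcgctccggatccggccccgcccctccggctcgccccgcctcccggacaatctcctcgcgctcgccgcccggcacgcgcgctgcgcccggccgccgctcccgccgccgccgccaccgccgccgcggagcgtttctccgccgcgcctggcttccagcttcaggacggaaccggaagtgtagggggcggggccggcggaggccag
Smad3: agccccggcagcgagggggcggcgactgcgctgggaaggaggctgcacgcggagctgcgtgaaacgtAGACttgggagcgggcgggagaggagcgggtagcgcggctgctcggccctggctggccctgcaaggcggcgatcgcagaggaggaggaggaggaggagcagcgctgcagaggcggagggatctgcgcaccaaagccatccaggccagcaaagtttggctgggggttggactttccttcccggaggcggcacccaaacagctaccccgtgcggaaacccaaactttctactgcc

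The palindrome began 222 bases before the annotated start of Mss51, at chr14:20497116-20497123. It was found in 70 of 32851 promoter windows (0.213%) and in none of the windows of the other 5 members that had one. The Mss51 window held 4 matches of GTCT on both strands together, of which 2 make up the palindrome, and 88.0% of all windows held at least 1. It held no CpG, as did 5.43% of all windows, and was 44% G and C. It held no match of the E-box, CANNTG, which 72.3% of windows held, and none of TATAAA, which 13.6% held. The Acvr2a window was 80.3% G and C with 54 CpG, and the Smad3 window 67.7% with 25. A match is a description of these letters and not a bound site.

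Mss51 intensity in MKO mice was 758 at the lowest, 1352 at the median and 2055 at the highest on CR, against 4476, 6907 and 8108 on the control diet. In FLOX mice it was 342, 753 and 1202 on CR, against 3587, 4249 and 6075 on the control diet. All 7 CR mice in MKO and all 6 in FLOX lay below every control-diet mouse of their genotype. Of all genes, 3.48% in MKO and 5.4% in FLOX had groups that did not overlap in either direction. The log2 change with CR was -2.24 ± 0.23 (SE, 95% interval -2.71 to -1.76) in MKO and -2.60 ± 0.25 (-3.11 to -2.09) in FLOX. Each was the largest fall and the largest change of the 14854 genes, which is the reason the gene was chosen.

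**Figure D1:**
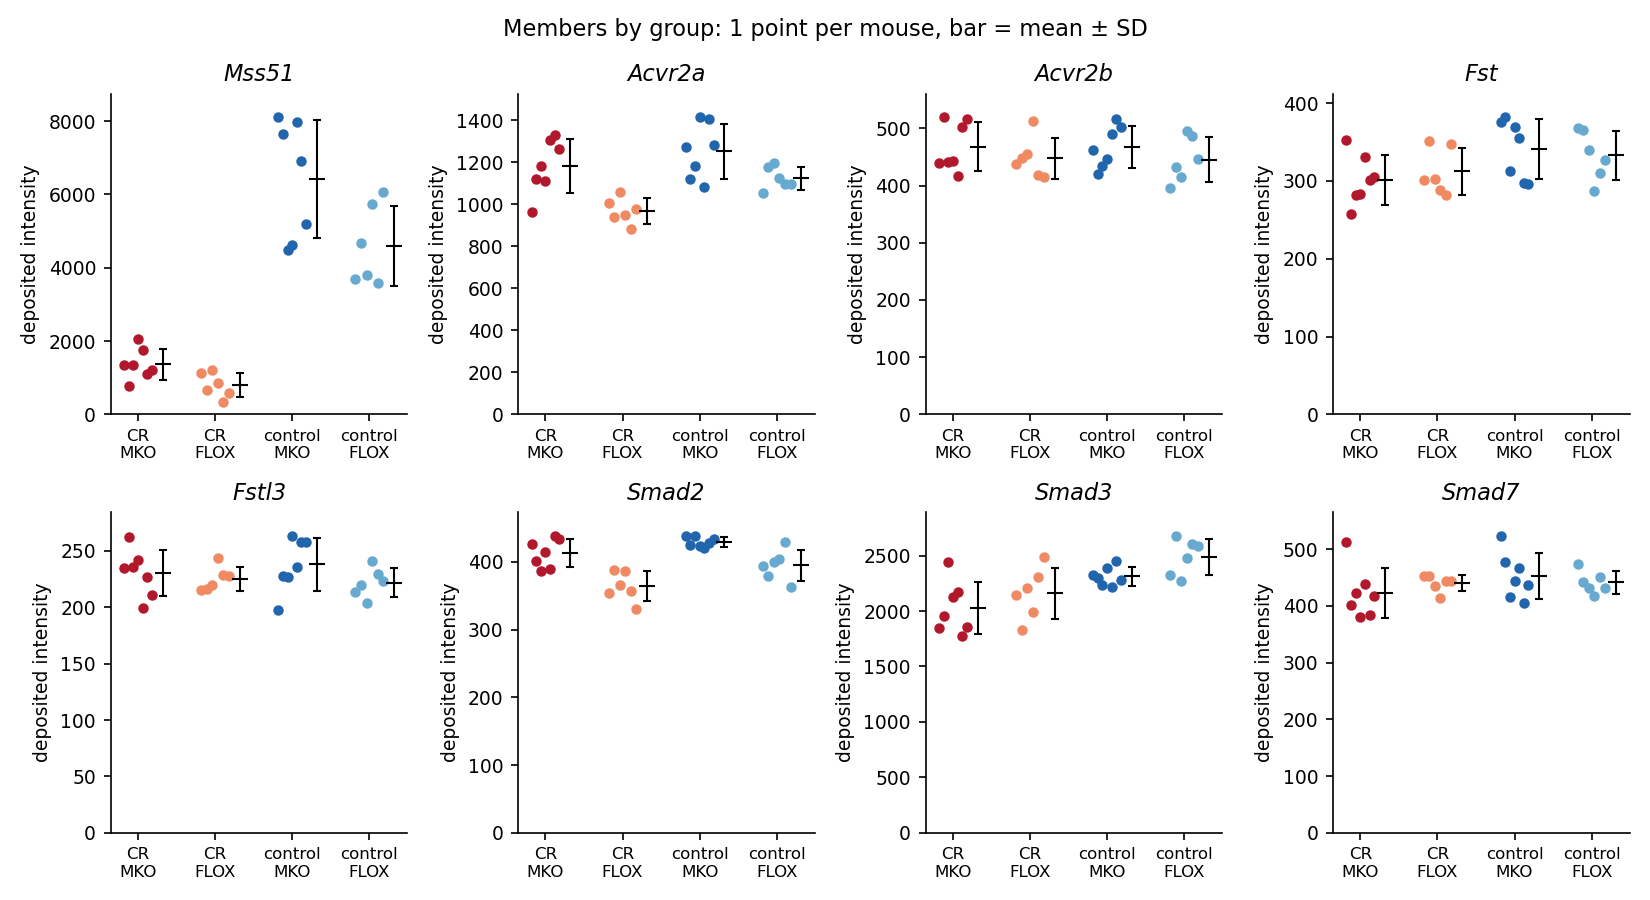
Deposited intensity (linear, arbitrary units, vertical axis from 0) of the probe set taken for each of the 8 measured members, in CR MKO, CR FLOX, control-diet MKO and control-diet FLOX mice. Each point is a mouse and the bars are mean ± SD. Mss51 separates the diets without overlap, from 342 to 2055 in the CR mice and from 3587 to 8108 in the control-diet mice, while the other 7 members spread within narrow ranges.

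The genotype difference in Mss51 was not itself used to choose it and was tested. Its comparisons on each diet share mice with the diet changes behind the choice, so their p-values are not independent of it. On CR, Mss51 averaged 1368 ± 426 in MKO mice (SD, n = 7) and 792 ± 333 in FLOX mice (SD, n = 6), a log2 change of 0.83 ± 0.24 (limma, adjusted p = 0.0156). Of the 7 MKO mice, 4 lay above every FLOX mouse, and the groups overlapped. The call rests on CR FLOX replicate 5, since without that mouse the log2 change was 0.62 and the adjusted p 0.0529.

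On the control diet Mss51 averaged 6419 ± 1609 in MKO mice (SD, n = 7) and 4600 ± 1090 in FLOX mice (SD, n = 6). The log2 change of 0.47 ± 0.24 (95% interval -0.02 to 0.96) did not pass (limma, adjusted p = 0.180), with 4 of 7 MKO mice above every FLOX mouse. Averaged over the diets, a contrast added after seeing the data, Mss51 was higher in MKO by 0.65 ± 0.17 on the log2 scale (limma, adjusted p = 0.00400). The diet change in MKO minus that in FLOX was 0.36 ± 0.34, with an interval from -0.34 to 1.06 that includes 0. The levels therefore ran from control-diet MKO through control-diet FLOX and CR MKO to CR FLOX, and the neighbours that overlapped in range were the 2 genotypes on either diet. The spread on the log2 scale was 0.46 and 0.66 (SD) in CR MKO and CR FLOX mice, against 0.38 and 0.33 in control-diet MKO and FLOX mice.

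The slow-fibre markers were also compared between the genotypes. The median log2 change of the 5 markers was 0.50 in MKO on each diet, with 1 called higher on CR (8.23% of all genes) and 0 on the control diet (9.05%). Their summed intensity ranged from 3272 to 14758 in CR MKO mice and from 1773 to 4072 in CR FLOX mice, and from 2184 to 7159 in control-diet MKO mice and 1564 to 6374 in control-diet FLOX mice. Without CR MKO replicate 6, the array richest in these transcripts, the log2 change of Mss51 on CR was 0.87 (limma, adjusted p = 0.0180). The part of slow-fibre content in the genotype difference of Mss51 was not tested, and leaving out 1 array cannot decide it.

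Of the extracellular inhibitors, neither follistatin gene was called in any comparison. Fst, follistatin itself, is at chr13:114452262-114458989. Its intensity in MKO mice was 257, 302 and 352 (lowest, median, highest) on CR, against 296, 355 and 382 on the control diet. In FLOX mice it was 282, 302 and 352 on CR, against 287, 334 and 368 on the control diet. The groups overlapped, and the log2 change with CR was -0.17 ± 0.07 in MKO (limma, adjusted p = 0.122) and -0.09 ± 0.08 in FLOX (adjusted p = 0.570). With genotype the log2 change was -0.05 on CR and 0.03 on the control diet, and no 95% interval of the 4 reached beyond -0.32 or 0.18. The interval with CR in MKO, from -0.32 to -0.02, is not adjusted for the number of genes and excluded 0. A further Fst probe set was too dim to pass the filter.

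Fstl3, a related binding protein at chr10:79777274-79782630, showed no called change. It ranged from 200 to 263 in CR MKO mice and from 215 to 243 in CR FLOX mice. The ranges were 197 to 263 in control-diet MKO mice and 204 to 241 in control-diet FLOX mice, so that all 4 groups overlapped. Its log2 changes lay between -0.04 and 0.09 over the 4 comparisons, and no 95% interval reached beyond -0.16 or 0.21.

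Of the 2 type II receptors, Acvr2a was higher in MKO on CR and Acvr2b was called nowhere. Acvr2a encodes the receptor ACVR2A, which also binds activins. On CR it was 961, 1180 and 1330 in MKO mice, against 883, 961 and 1059 in FLOX mice. On the control diet it was 1081, 1272 and 1414 in MKO mice, against 1052, 1111 and 1195 in FLOX mice. On CR, 6 of 7 MKO mice lay above every FLOX mouse, and on the control diet 4 of 7 did. The log2 change with genotype was 0.28 ± 0.07 on CR (limma, adjusted p = 0.00448) and 0.15 ± 0.07 on the control diet (adjusted p = 0.131).

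With diet, Acvr2a did not pass the threshold in either genotype. The log2 change with CR was -0.08 ± 0.06 in MKO (limma, adjusted p = 0.454) and -0.21 ± 0.07 in FLOX (adjusted p = 0.0525), where 5 of 6 CR mice lay below every control-diet mouse. The FLOX value passed, with adjusted p from 0.0284 to 0.0498, when CR MKO replicates 1, 5 or 6, CR FLOX replicate 3, or control-diet MKO replicates 2, 4, 5 or 6 were left out one at a time. The diet effect averaged over genotypes was -0.15 ± 0.05 (adjusted p = 0.0241). The other Acvr2a probe set had the same signs with smaller values, 0.14 ± 0.06 with genotype on CR, and did not pass (adjusted p = 0.144 over the 26116 probe sets tested).

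Acvr2b, the receptor with the higher known affinity for myostatin, is at chr9:119401583-119442148. It ranged from 417 to 520 in CR MKO mice, 415 to 514 in CR FLOX mice, 420 to 516 in control-diet MKO mice and 395 to 495 in control-diet FLOX mice. These ranges overlap almost fully. Its log2 changes lay between 0.00 and 0.07, with 95% intervals between -0.12 and 0.20. None of its 3 probe sets was called in any comparison. The probe set 1440525_at differed most from the one taken, with a log2 change of -0.12 ± 0.05 in MKO on the control diet (limma, adjusted p = 0.0615 over probe sets), where 5 of 7 MKO mice lay below every FLOX mouse.

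Among the intracellular members, Smad3 was lower under CR. SMAD3 carries the signal of activin-type receptors to DNA. In MKO mice its intensity was 1776, 1956 and 2445 on CR, against 2220, 2293 and 2450 on the control diet. In FLOX mice it was 1826, 2176 and 2485 on CR, against 2271, 2529 and 2679 on the control diet. In MKO, 6 of 7 CR mice lay below every control-diet mouse, and in FLOX 4 of 6 did. The log2 change was -0.20 ± 0.06 in MKO (limma, adjusted p = 0.0361) and -0.21 ± 0.07 in FLOX (adjusted p = 0.0541), and averaged over genotypes -0.20 ± 0.05 (adjusted p = 0.00212).

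With genotype Smad3 was not called, at -0.09 ± 0.07 on CR (limma, adjusted p = 0.379) and -0.10 ± 0.07 on the control diet (adjusted p = 0.300). The effect averaged over diets was -0.10 ± 0.05 (adjusted p = 0.112), and it passed after quantile normalization (-0.13, adjusted p = 0.0308), without CR FLOX replicate 2 (adjusted p = 0.0408) and without CR MKO replicate 3 (adjusted p = 0.0316).

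All 3 Smad3 probe sets were called lower with CR in MKO, and 2 of 3 in FLOX, over the 26116 probe sets tested. The probe set 1450471_at ranged from 406 to 542 in CR MKO mice, against 486 to 627 in control-diet MKO mice. In FLOX mice it ranged from 371 to 503 on CR, against 507 to 643 on the control diet. All 6 CR mice lay below all 6 control-diet mice, where 5.4% of all genes did not overlap in either direction. The log2 changes of 1450471_at were -0.26 ± 0.07 in MKO (adjusted p = 0.0139) and -0.38 ± 0.08 in FLOX (adjusted p = 0.00202). Those of 1450472_s_at were -0.20 ± 0.05 in MKO (adjusted p = 0.00331) and -0.20 ± 0.05 in FLOX (adjusted p = 0.0116).

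The Smad3 call in MKO, at the brightest probe set, is sensitive to single mice. It was lost without control-diet MKO replicates 1, 2, 4 or 6, or without CR MKO replicates 1, 2, 6 or 7, each left out alone, with log2 changes from -0.20 to -0.17 and adjusted p from 0.0505 to 0.0915. The highest of these p-values came from leaving out CR MKO replicate 6, the array rich in slow-fibre transcripts. Without that array the FLOX call was gained instead (adjusted p = 0.0475). That call was also gained without CR MKO replicate 3, CR FLOX replicate 6, or control-diet FLOX replicates 1 or 3 (adjusted p from 0.0228 to 0.0498). The averaged diet effect passed without any single mouse, with adjusted p from 0.000304 to 0.00478.

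Smad2, the other receptor-activated SMAD of this branch, was higher in MKO on both diets. On CR its intensity was 387, 414 and 438 in MKO mice, against 331, 362 and 389 in FLOX mice. On the control diet it was 420, 427 and 439 in MKO mice, against 363, 397 and 430 in FLOX mice. On CR, 6 of 7 MKO mice lay above every FLOX mouse, and on the control diet 3 of 7 did. The log2 change was 0.17 ± 0.04 on CR (limma, adjusted p = 0.00241) and 0.12 ± 0.04 on the control diet (adjusted p = 0.0380).

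The Smad2 call on CR was kept without any single mouse, with adjusted p up to 0.00949. That on the control diet was lost without control-diet FLOX replicates 1, 2 or 6, or without control-diet MKO replicates 1, 3, 4, 6 or 7, with log2 changes from 0.09 to 0.12 and adjusted p from 0.0502 to 0.122. The other Smad2 probe set was higher in MKO by 0.06 ± 0.03 on CR (adjusted p = 0.304) and 0.09 ± 0.03 on the control diet (adjusted p = 0.0736), neither past the threshold. Averaged over diets it passed, at 0.07 ± 0.02 (limma, adjusted p = 0.0245 over probe sets). With diet, Smad2 was not called in either genotype, at -0.06 ± 0.04 in MKO (limma, adjusted p = 0.374) and -0.11 ± 0.04 in FLOX (adjusted p = 0.0810). The FLOX value passed without CR FLOX replicate 2 (adjusted p = 0.0488) or control-diet FLOX replicate 6 (adjusted p = 0.0370). The averaged diet effect was -0.09 ± 0.03 (limma, adjusted p = 0.0273), and was lost without CR FLOX replicate 6 (-0.07, adjusted p = 0.0569) or control-diet FLOX replicate 5 (-0.07, adjusted p = 0.0558).

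Smad7, the inhibitory SMAD, gave different answers at its 2 probe sets. At the brighter one it was 381, 417 and 512 in CR MKO mice and 415, 443 and 453 in CR FLOX mice, and 405, 443 and 523 in control-diet MKO mice and 417, 437 and 474 in control-diet FLOX mice. These groups overlapped and no comparison was called, with log2 changes between -0.10 and 0.03. The lowest of these, CR in MKO, passed when CR MKO replicate 1 was left out (-0.14, adjusted p = 0.0450). At 1443771_x_at, whose suffix marks probes that can bind several transcripts, control-diet MKO mice had 362, 386 and 488, against 291, 332 and 347 in control-diet FLOX mice. There all 7 MKO mice lay above every FLOX mouse, as 6.64% of genes had groups that did not overlap on this diet. The log2 change was 0.27 ± 0.09 (limma, adjusted p = 0.0340 over probe sets), against 0.03 ± 0.06 at the brighter probe set (adjusted p = 0.739 over genes). On CR, 1443771_x_at did not pass with genotype (0.11 ± 0.09, adjusted p = 0.417). Averaged over diets it passed, at 0.19 ± 0.06 (adjusted p = 0.0195).

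**Figure D2:**
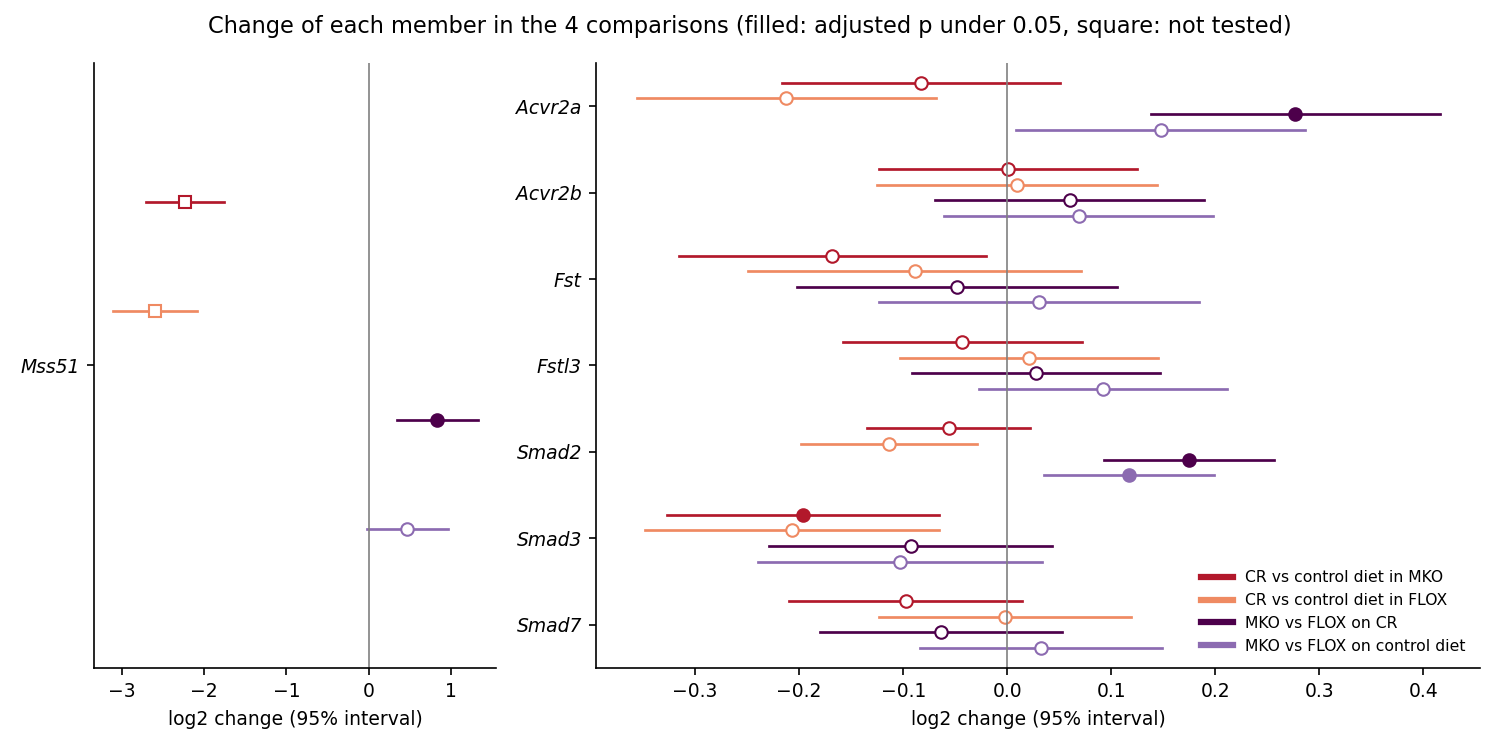
Log2 change (horizontal axis, with 95% interval) of each measured member in the 4 comparisons, Mss51 on its own axis at the left. Filled circles passed an adjusted p under 0.05 over the 14854 genes, and squares are the diet changes of Mss51, which were not tested. Mss51 with CR lies at -2.24 and -2.60, and the other 7 members lie between -0.21 and 0.28.

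Counted over the 7 measured members other than Mss51, between 0 and 2 were called in each comparison of groups, too few genes to set against the shares of all genes. With CR, 1 was lower in MKO (Smad3, where 8.48% of all genes were lower) and 0 in FLOX (5.37% of all genes). An unadjusted limma p under 0.05 was found for 2 of the 7 and 26.9% of all genes in MKO. In FLOX it was found for 3 of the 7 and 22.6% of all genes. With genotype, 2 were higher in MKO on CR (Acvr2a and Smad2, 8.23% of all genes) and 1 on the control diet (Smad2, 9.05% of all genes). The median log2 change of the 7 was -0.08 with CR in MKO and -0.09 in FLOX, beside 0.00 over all genes in each. It was 0.03 with genotype on CR and 0.07 on the control diet, beside -0.02 over all genes in each. The averaged diet effect called 3 lower (Acvr2a, Smad2 and Smad3, 12.6% of all genes) and the averaged genotype effect called 2 higher (Acvr2a and Smad2, 14.9% of all genes).

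No member was called for the interaction of diet and genotype, and none had an unadjusted p under 0.05. The interaction called 0% of the 14854 genes with limma at the adjusted threshold, while 720 had an unadjusted p under 0.05. The diet change in MKO minus that in FLOX lay between -0.10 and 0.13 on the log2 scale for these 7, with 95% intervals between -0.30 and 0.33.

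**Figure D3:**
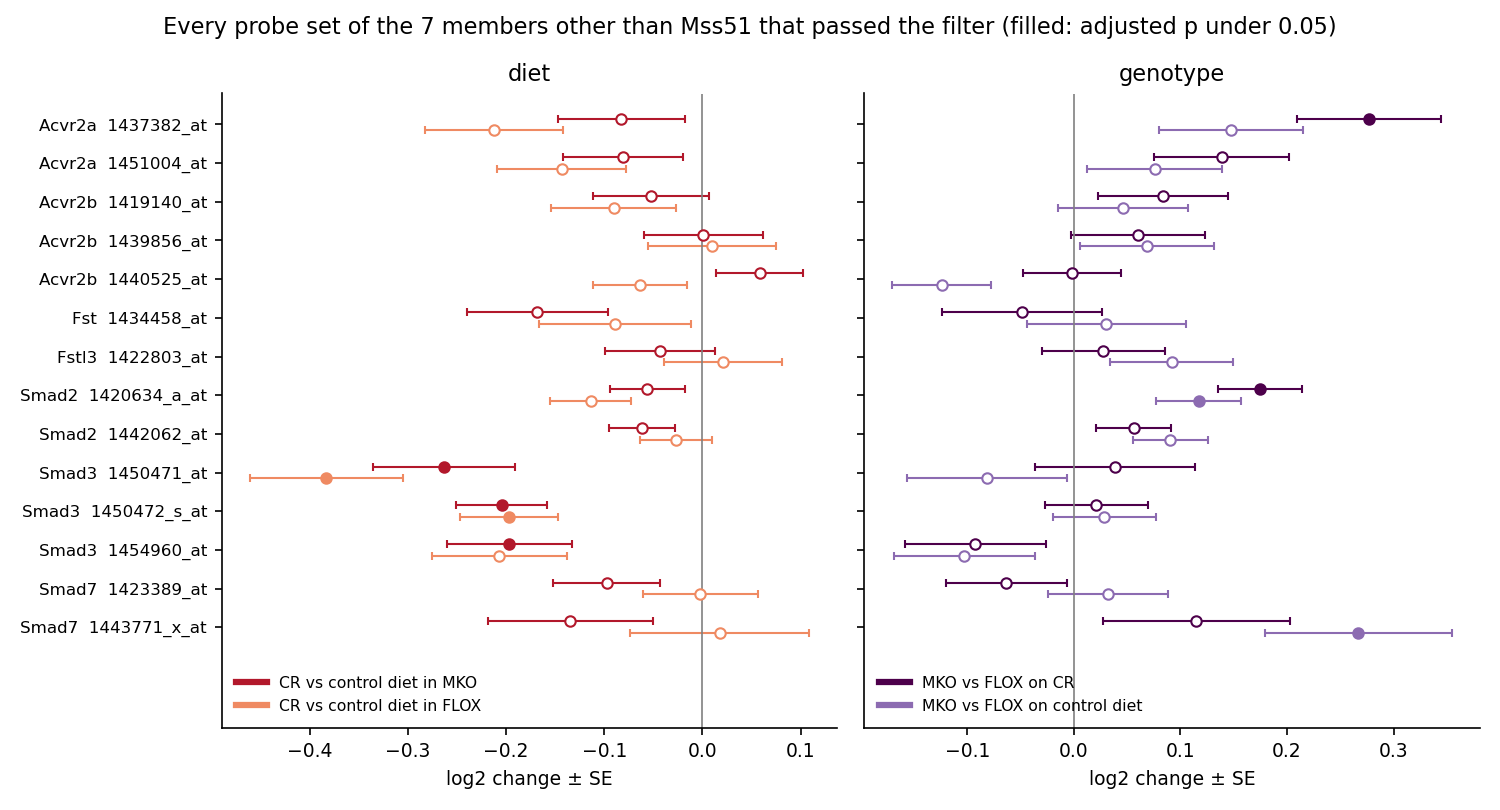
Log2 change ± SE (horizontal axis) of the 14 probe sets of the 7 members other than Mss51, with diet at the left and genotype at the right. Filled points passed an adjusted p under 0.05 over the 26116 probe sets. The 3 Smad3 probe sets lie between -0.38 and -0.20 with CR, and with genotype the 2 Smad7 probe sets differ, at 0.03 and 0.27 on the control diet.

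By probe set, 3 of these 14 were lower with CR in MKO (8.46% of all probe sets) and 2 in FLOX (5.39%), and all 5 calls were of Smad3. With genotype, 2 were higher in MKO on CR (8.52%), 1 each of Acvr2a and Smad2, and 2 on the control diet (8.97%), 1 each of Smad2 and Smad7. These 5 calls are not independent, since probe sets of 1 gene read its transcripts in the same mice.

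Across mice, no relation of Mss51 with another member passed the threshold within the groups. With group means removed, Pearson's r of Mss51 with each of the 7 over 26 mice ran from -0.27 (Fstl3, permutation p = 0.168) to 0.15 (Fst, permutation p = 0.484). Spearman's rho ran from -0.27 (Fstl3, permutation p = 0.205) to 0.15 (Smad3, permutation p = 0.509). After adjustment over the 7 relations the smallest permutation p was 0.840 for r and 0.676 for rho. Without the 2 mice farthest from the median of Mss51, r was -0.15 for Fstl3 and -0.11 for Fst. The 4 groups taken singly gave r from -0.80 to 0.88 with 6 or 7 mice each.

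The genes whose level followed Mss51 most closely over all 26 arrays were Smtnl2 (r = 0.93), Sqstm1 (0.91), Mrln (0.91), Pla2g7 (0.90) and Itgb5 (0.90). Sqstm1 encodes the autophagy receptor p62, Mrln the micropeptide myoregulin of the calcium pump, Pla2g7 a secreted phospholipase and Itgb5 an integrin subunit. These correlations are a description and include the differences between the groups. With group means removed, which takes out both diet and genotype, they were 0.22, 0.28, 0.51, 0.47 and 0.32. With CR, Smtnl2 had log2 changes of -0.90 in MKO and -0.88 in FLOX, and Mrln of -0.87 and -1.25, against -2.24 and -2.60 for Mss51. With group means removed the likest genes were Tctex1d4 (0.75), Icam5 (0.72), Mul1 (0.68), Papss2 (0.68) and Samt3 (0.67), and only 2 of these 5 stayed among the 5 after quantile normalization. The members ranked far lower, the highest being Acvr2a (r = 0.55, rank 981), Smad3 (0.52, rank 1165) and Smad2 (0.52, rank 1173). None of the windows of the first 5 likest genes held the palindrome shown above.

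A list of 53 further genes of the TGF-beta, activin and BMP branches was followed by role. Of these, 48 were tested, 4 were too dim and 1 had no probe set naming it alone. With CR, 14 were lower and 1 higher in MKO, and 11 lower and 2 higher in FLOX. Among all genes 8.48% were lower and 6.64% higher in MKO, and 5.37% lower and 4.66% higher in FLOX. The median log2 change of the 48 was -0.10 in MKO and -0.06 in FLOX, beside 0.00 over all genes.

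Acvr1, the BMP type I receptor ALK2, was lower with CR in both genotypes. Its intensity in MKO mice was 651, 704 and 787 on CR, against 882, 979 and 1021 on the control diet. In FLOX mice it was 552, 614 and 652 on CR, against 685, 782 and 862 on the control diet. The diets did not overlap in either genotype, where 3.48% of all genes in MKO and 5.4% in FLOX did not overlap in either direction. The log2 changes of Acvr1 were -0.45 ± 0.05 in MKO (limma, adjusted p = 3.33e-06) and -0.33 ± 0.06 in FLOX (adjusted p = 0.000477).

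Of 10 ligand and processing genes, 3 were lower with CR in MKO (8.48% of all genes) and 2 in FLOX (5.37%). Of 7 binding proteins 3 were lower in each genotype. Tgfb3, the ligand TGF-beta 3, changed by -0.29 ± 0.05 in MKO (limma, adjusted p = 0.000101) and -0.26 ± 0.05 in FLOX (adjusted p = 0.00116). Bmp1, a protease that frees myostatin from its propeptide, changed by -0.33 ± 0.05 in MKO (adjusted p = 2.19e-05) and -0.21 ± 0.05 in FLOX (adjusted p = 0.00735). Smurf2, a ubiquitin ligase of the pathway, changed by -0.31 ± 0.05 in MKO (adjusted p = 0.000153) and -0.28 ± 0.06 in FLOX (adjusted p = 0.00193). Ltbp4, which stores latent TGF-beta in the matrix, changed by -0.30 ± 0.07 in MKO (adjusted p = 0.00202) and -0.48 ± 0.07 in FLOX (adjusted p = 6.84e-05). Myog, the muscle transcription factor myogenin, was higher in FLOX by 0.34 ± 0.07 (adjusted p = 0.00159). It was not called in MKO (0.15 ± 0.06, adjusted p = 0.108).

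Markers of matrix cells moved with these falls. Of 10 fibroblast and tendon markers, 7 were lower with CR in each genotype (8.48% of all genes in MKO and 5.37% in FLOX). Their summed intensity ranged from 9156 to 16148 in CR MKO mice and 11188 to 15152 in CR FLOX mice, against 16759 to 21910 in control-diet MKO mice and 16173 to 22796 in control-diet FLOX mice. Of 6 endothelial markers, 5 were lower with CR in MKO (8.48% of all genes) and 2 in FLOX (5.37%). The part of these cells in the falls of the pathway genes, Smad3 included, was not tested. The marker list and the pathway list share Dcn.

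**Figure D4:**
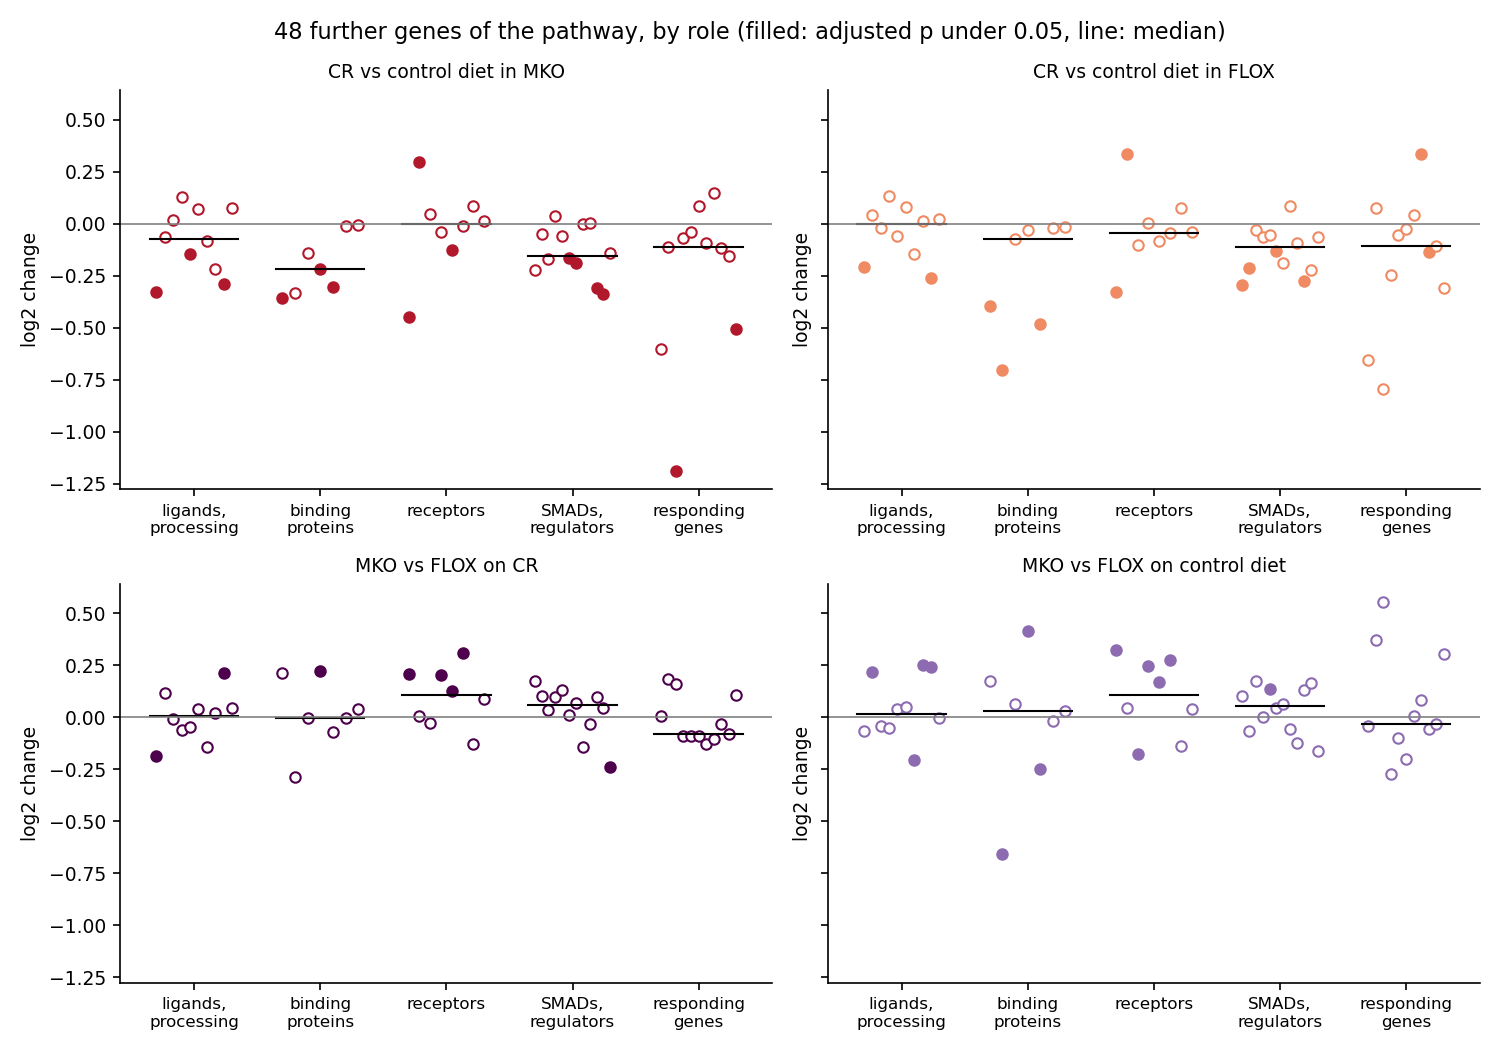
Log2 change (vertical axis) of 48 further genes of the pathway in the 4 comparisons, grouped by role along the horizontal axis. Each point is a gene, filled where the adjusted p was under 0.05, and the line is the median of its role. With CR most filled points lie below 0, and with genotype 4 of 8 receptors are filled above 0 on either diet.

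With genotype, genes of the list were called in both directions. On the control diet 9 of the 48 were higher in MKO and 4 lower, where 9.05% of all genes were higher and 10.2% lower. On CR 6 were higher and 2 lower, where 8.23% were higher and 9.05% lower. Of the 8 receptors tested, the same 4 were higher in MKO on both diets, namely Acvr1, Tgfbr1, Bmpr1a and Bmpr2, of which Bmpr1a and Bmpr2 are named after their values were seen. They encode type I and type II receptors of the BMP and TGF-beta branches. Bambi, a decoy receptor, was lower in MKO on the control diet, with a log2 change of -0.18 ± 0.04 (limma, adjusted p = 0.00207). It was not called on CR (-0.03 ± 0.04, adjusted p = 0.692).

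Tgfbr1, the type I receptor ALK5 that serves TGF-beta and also myostatin, had 997, 1048 and 1223 in CR MKO mice, against 787, 877 and 966 in CR FLOX mice. On the control diet it had 933, 1075 and 1270 in MKO mice, against 829, 903 and 988 in FLOX mice. The genotypes did not overlap on CR, where 7.72% of all genes had groups that did not, and overlapped on the control diet. The log2 changes were 0.31 ± 0.06 on CR (limma, adjusted p = 0.000688) and 0.28 ± 0.06 on the control diet (adjusted p = 0.00215). Acvr1 was higher in MKO by 0.21 ± 0.06 on CR (adjusted p = 0.00893) and 0.33 ± 0.06 on the control diet (adjusted p = 0.000132).

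Outside the receptors, Tgfb3 was higher in MKO by 0.21 ± 0.05 on CR (limma, adjusted p = 0.00240) and 0.24 ± 0.05 on the control diet (adjusted p = 0.000814). Ltbp3, another store of latent TGF-beta, was higher by 0.22 ± 0.08 on CR (adjusted p = 0.0463) and 0.42 ± 0.08 on the control diet (adjusted p = 0.000385). Bmp1 was lower on CR, with a log2 change of -0.19 ± 0.05 (adjusted p = 0.00597). It was not called on the control diet (-0.07 ± 0.05, adjusted p = 0.346). Of the 11 genes known to respond to the pathway, 0 passed the threshold with genotype on either diet. With CR, 2 were lower in MKO (8.48% of all genes), and in FLOX 1 was lower (5.37%) and 1 higher (4.66%). The 2 in MKO, named after their values were seen, were Fbxo32 (-1.19 ± 0.25, limma, adjusted p = 0.00157) and Trim63 (-0.51 ± 0.13, adjusted p = 0.00638). In FLOX both had the same sign and were not called, Fbxo32 at -0.80 ± 0.27 (adjusted p = 0.0580) and Trim63 at -0.31 ± 0.14 (adjusted p = 0.163). The averaged diet effect called 5 lower (12.6% of all genes) and 1 higher. The averaged genotype effect called 1 higher (14.9%) and 1 lower. The shares of all genes higher with the averaged diet effect and lower with the averaged genotype effect were not counted, so those 2 single calls cannot be judged.

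The genes on either side of Mss51 on chromosome 14 were examined after the values of Mss51 had been seen. Of the 8 genes whose annotated span (GRCm38.p6) lies at least in part within 100 kb of Mss51, all 8 were measured. The nearest are Anxa7, an annexin that binds membranes in the presence of calcium, at chr14:20455261-20480133, and Ppp3cb, a catalytic subunit of the phosphatase calcineurin, at chr14:20499364-20546573. Their gaps to Mss51 are 2723 and 2462 bases.

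Both neighbours were called in all 4 comparisons, lower with CR and higher in MKO. With CR, 8.48% of all genes were lower in MKO and 5.37% in FLOX. By genotype, 8.23% were higher in MKO on CR and 9.05% on the control diet. Anxa7 changed with CR by -0.46 ± 0.05 in MKO (limma, adjusted p = 1.21e-06) and -0.55 ± 0.06 in FLOX (adjusted p = 8.62e-07). With genotype it changed by 0.47 ± 0.05 on CR (adjusted p = 2.83e-07) and 0.38 ± 0.05 on the control diet (adjusted p = 9.57e-06). Ppp3cb changed with CR by -0.21 ± 0.04 in MKO (adjusted p = 0.00218) and -0.20 ± 0.05 in FLOX (adjusted p = 0.00884). With genotype it changed by 0.22 ± 0.05 on CR (adjusted p = 0.00105) and 0.23 ± 0.05 on the control diet (adjusted p = 0.000769).

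**Figure D5:**
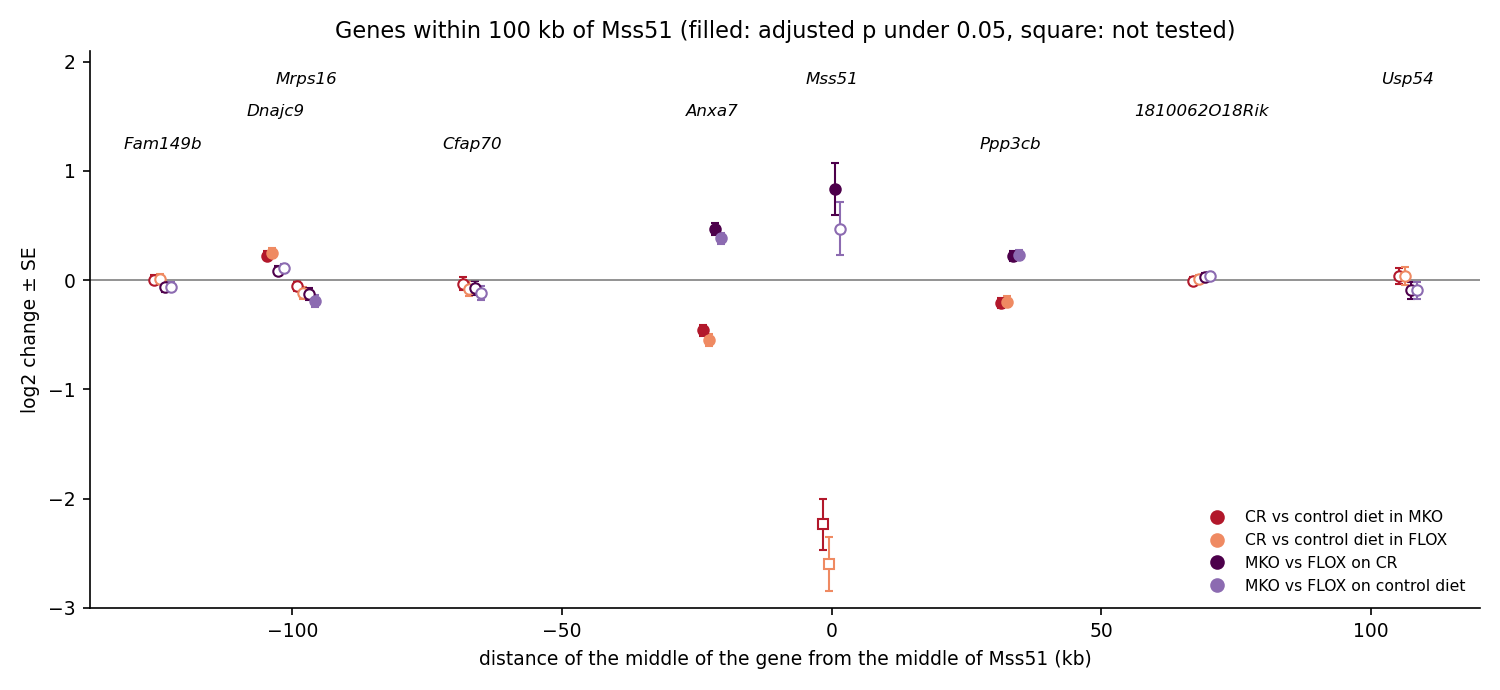
Log2 change ± SE (vertical axis) of Mss51 and the 8 genes within 100 kb of it, placed by the distance of their middle from the middle of Mss51 in kb, in the 4 comparisons. Filled points passed an adjusted p under 0.05 over the 14854 genes, and squares are the diet changes of Mss51, which were not tested. The 2 nearest genes, Anxa7 and Ppp3cb, lie below 0 with CR and above 0 with genotype on either diet.

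Of the other 6 genes, Cfap70, Fam149b, Usp54 and 1810062O18Rik were called in none of the 4 comparisons. Dnajc9 was higher with CR, by 0.22 ± 0.04 in MKO (limma, adjusted p = 0.000460) and 0.25 ± 0.04 in FLOX (adjusted p = 0.000663). Mrps16 was lower in MKO on the control diet, by a log2 change of -0.19 ± 0.05 (adjusted p = 0.00827). Whether these changes share a cause was not tested.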

How the data were processed

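RNA of TA/EDL muscle from 26 mice was measured on Affymetrix arrays. Per the labels' protocols, Trizol and spin columns were used for extraction and the cRNA carried biotin. The deposited table holds 1 intensity per probe set and array, and no label says how the authors treated background, summarised probes or normalized arrays. Array minima were 56.6 to 62.8, so changes of dim genes may be compressed, which was not measured. The number of arrays limits the precision. No detection calls or scan dates were used, so no scan batch was tested.

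The deposited intensity was taken to log2(intensity + 16), which understates the change of dim genes. Of 45101 probe sets, 64 were controls, 34945 named 1 gene, 932 several and 9160 none, by the platform annotation with 34741 symbols updated by gene identifier. Probe sets naming several genes were left out, among them 1 naming Acvr2a and another gene. Probe sets under the 30th percentile of mean log2 value (7.47) were dropped, and the brightest per gene was taken. The test was limma 3.58.1 (lmFit and eBayes, in R 4.3.3), fitting all arrays with a mean for each group, with Benjamini-Hochberg adjustment. Probe sets were tested in a fit of their own. Relations across mice used two-sided permutations of mice within groups (100000, Python 3.11.15, NumPy 2.4.6). The scripts were tested on simulated data.

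The members, lists, tests and alternatives were chosen with earlier results of these data known. Contrasts averaged over diets or genotypes and the genes beside Mss51 were added after seeing the data. Named genes are the members, the 5 likest genes by each measure of likeness, and in each comparison the 4 called genes of smallest p in the wider list. Genes of that list named after their values were seen are marked as such. The alternatives changed the pseudocount, filter, normalization, choice of probe set, variance model and arrays in the fit, added the array number as a block, and left out each mouse.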

Additional observations from a re-analysis of the deposited data

How the results depend on the processing

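The diet change of Mss51 kept its direction under every alternative tried, from -2.34 to -2.11 in MKO and from -2.74 to -2.39 in FLOX when a mouse was left out. Its call with genotype on CR passed under the 10 other alternatives (adjusted p from 0.0134 to 0.0416), also without CR MKO replicate 6, and was lost without CR FLOX replicate 5. The calls of Acvr2a and Smad2 on CR passed under all of them, with 2 members called each time. The number of other members called was less stable for the comparisons near the threshold, and the cause was not tested. With CR in FLOX it was 0 as reported, 2 with the filter at the 50th percentile, 2 with the mean of probe sets, 2 without the slow-rich array and 1 with only the groups compared. With CR in MKO it was 1 as reported and 0 without the slow-rich array. By genotype on the control diet it was 1 as reported and 0 with only the groups compared. When a mouse was left out these counts ran from 0 to 2 with CR in FLOX, 0 to 1 with CR in MKO and 0 to 1 for MKO on the control diet. The averaged contrasts ran from 2 to 4 for diet and 2 to 3 for genotype. In the wider list, MKO on CR had 5 genes called with the mean of probe sets, against 8 as reported.

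With the array number as a replicate block, 0 members were called with CR in MKO (Smad3, adjusted p = 0.0529) and 0 for MKO on the control diet (Smad2, adjusted p = 0.0813), and the 2 calls on CR passed. The labels used here do not say whether the numbers pair the mice, and the correlations cannot decide it. Deviations of same-numbered arrays correlated at -0.36 to 0.34 (median 0.08, 37 pairs). Those of arrays with other numbers correlated at -0.43 to 0.50 (median -0.01, 216 pairs). Of the 26 arrays, 2 correlated best with an array of their own number.

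Changes of sign occurred in results near 0 that were called in no setting. With the mean of probe sets, Acvr2b was -0.048 with CR in FLOX and -0.0032 by genotype on the control diet, and Smad7 was 0.0077 with CR in FLOX and 0.026 by genotype on CR. Quantile normalization gave 0.0051 for Smad7 with CR in FLOX, and without the slow-rich array Acvr2b with CR in MKO was -0.017. Leaving out a mouse turned Acvr2b with CR in FLOX (range -0.029 to 0.040) and in MKO (-0.024 to 0.027), Fst by genotype on the control diet (-0.0091 to 0.062), Fstl3 with CR in FLOX (-0.0015 to 0.043) and by genotype on CR (-0.0026 to 0.059), and Smad7 with CR in FLOX (-0.018 to 0.018) and by genotype on the control diet (-0.0026 to 0.057).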
